A study of Mus musculus with 8 samples.

Results

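The cadherins and protocadherins of the mouse cortex were examined, that is the genes whose symbols begin with Cdh and a digit or with Pcdh. A gene was kept where it had 10 or more reads in 4 or more of the 8 libraries, which held for 84 of 93 such rows in a table of 22000, and all 84 were among the 13879 genes tested. The 84 comprised 17 classical cadherins, 1 other cadherin, 11 protocadherins outside the gene clusters and 55 clustered protocadherins. The 9 rows left out were Cdh3, Cdh16, Cdh17, Cdh23, Cdh26, Pcdh12, Pcdha4, Pcdha8 and Pcdhb1, and Cdh16 had no read. Nearest to the limit were Pcdha4, which reached 10 reads in 3 libraries and was left out, and Pcdha1, which reached them in 5 and was kept.

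Polyadenylated RNA of the whole cortex was sequenced from 8 mice, 4 labelled Mef2c heterozygous and 4 labelled Mef2c wild type, with 2 males and 2 females in either genotype. The series asked how expression differs with this genotype. The labels do not give the allele, the part of the gene altered, the strain, the age or any treatment. The animal numbers in the titles fall into a run of lower and a run of higher numbers, called the first and the second run here, each with 1 mouse of every sex and genotype, and the labels do not say what the runs stand for.

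Libraries held 16092773 to 17841377 reads, of which the 84 genes took 0.236% to 0.252%. Levels are given as CPM, counts scaled to a common library total. Mef2c, the gene named in the genotype, had 1233, 1336, 1391 and 1255 CPM in heterozygous replicates 1 to 4 and 1038, 939, 999 and 1003 CPM in wild type replicates 1 to 4, so it was higher in every library labelled heterozygous. Its log2 fold change was 0.39 with an edgeR adjusted p of 0.000154, by which is meant throughout a p from the quasi-likelihood test, Benjamini-Hochberg adjusted over all tested genes; a gene passed, or was called, at an adjusted p under 0.05. Since this runs against the loss of an allele's transcript, all directions refer to the libraries as labelled. Counts per gene cannot tell its alleles apart. Heterozygous replicate 4, labelled female, held 72 reads of 4 Y-linked genes, where the other female libraries held 0 to 3 and the males 2150 to 2564. Markers of cortical excitatory neurons summed to 2375 to 2694 CPM over the libraries, those of the thalamus to 69.2 to 82.3 CPM and those of the choroid plexus to 2.35 to 6.32 CPM. Striatum markers summed to 291 to 401 CPM in the heterozygous and 299.8 to 336 CPM in the wild type group, with 7 of 7 above 0 by genotype (median log2 fold change 0.21) and none called. Of 5 tested hippocampus markers 1 was called, Fibcd1, higher, beside 0.267% of all tested genes. The hippocampus sums were 69.6 to 81.8 CPM in the heterozygous and 79.1 to 93.2 CPM in the wild type group. The part of either tissue in the levels below was not tested.

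Cadherins are membrane proteins whose extracellular repeats bind calcium and hold cells together, mostly by pairing with the same cadherin on the neighbouring cell. Classical cadherins anchor to the actin skeleton through catenins, and type II members mark particular layers, areas and projection neurons of the brain. Protocadherins lack the catenin-binding tail. Single neurons express different choices of the clustered ones, which gives the neurons different surface identities. In the alpha and gamma clusters the choice is among alternative first exons. The delta protocadherins outside the clusters are single genes with roles in axon growth, sorting and synapse loss.

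The sequences just upstream of the start sites are given for Cdh6, the member that passed the test, for Cdh9, the nearest other member on that chromosome, with the largest rise among type II cadherins, for Cdh8, the other member whose genotypes did not overlap, and for Pcdh10, a member with near-equal levels. They are 5′ to 3′ on the gene's strand, from RefSeq promoter entries on build GRCm38.p6. Capitals mark a stretch of letters that Cdh6 and Cdh9 share. The windows are chr15:13173676-13173925 (minus strand) for Cdh6, chr15:16728665-16728755 (plus) for Cdh9, chr8:99416472-99416721 (minus) for Cdh8 and chr3:45378148-45378397 (plus) for Pcdh10. That of Cdh9 is 91 bases long, since it ends before the earliest start of the gene in GENCODE, and the others are 250.
Cdh6: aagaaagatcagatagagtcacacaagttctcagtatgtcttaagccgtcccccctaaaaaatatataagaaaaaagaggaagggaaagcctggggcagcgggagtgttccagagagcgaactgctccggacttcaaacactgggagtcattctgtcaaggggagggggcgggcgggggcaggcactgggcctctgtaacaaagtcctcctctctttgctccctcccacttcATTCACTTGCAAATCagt
Cdh9: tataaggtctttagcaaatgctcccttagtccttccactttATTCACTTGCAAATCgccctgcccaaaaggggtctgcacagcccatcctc
Cdh8: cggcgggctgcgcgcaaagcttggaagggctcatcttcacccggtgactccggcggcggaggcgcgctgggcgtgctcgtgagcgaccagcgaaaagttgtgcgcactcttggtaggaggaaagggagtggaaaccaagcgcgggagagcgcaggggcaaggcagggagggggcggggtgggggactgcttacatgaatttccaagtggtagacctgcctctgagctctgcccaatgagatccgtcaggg
Pcdh10: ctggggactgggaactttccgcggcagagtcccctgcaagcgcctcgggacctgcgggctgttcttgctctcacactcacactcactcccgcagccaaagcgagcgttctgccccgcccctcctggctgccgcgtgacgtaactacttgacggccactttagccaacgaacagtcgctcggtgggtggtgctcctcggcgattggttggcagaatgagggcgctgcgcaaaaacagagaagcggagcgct

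Entries were used for 20 of the 84 members, and the 250 bases upstream of each RefSeq start were compared. Some of these windows, those of Cdh10, Cdh12, Cdh15, Cdh18 and Pcdh15 among them, begin past the earliest GENCODE start and so lie inside the gene as annotated there. Others, such as that of Cdh9, run across this start. None of the clustered protocadherins was among the 20, nor were Cdh2 and Pcdh1, since their chromosome was left out of the search. The comparisons below therefore do not cover most of the family. The stretch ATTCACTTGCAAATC, of 15 bases, was the longest run of identical letters on the same strand in any of the 190 pairs of these members, and the next longest pair shared 13. It ended 4 bases before the GENCODE start of Cdh6 and 36 bases before that of Cdh9. Counted from the RefSeq starts that set the windows, its last base lay 4 bases upstream in Cdh6 and 195 in Cdh9. Of all 32851 windows searched, 2 held it (0.00609%), these same ones. It was singled out after it had been found, and its part in any level was not tested. The MEF2 binding motif, which reads alike on both strands, was matched in 2 of the 20 members, Cdh10 and Pcdh20. The match of Cdh10 lies past the earliest GENCODE start of that gene. Of all windows searched 2.92% held a match. That is a share of windows, of which a gene can have several, so it is not on the same scale as the count of members. None of the 4 printed genes had a match in its 250 bases. GC content over the 250 bases was 51.2% for Cdh6, 48% for Cdh9, 64.4% for Cdh8 and 63.2% for Pcdh10, against a median of 52.4% over all windows searched. For Cdh9 the 250 bases include those past its earliest GENCODE start, which are not printed.

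The family's reads were unevenly divided. The 11 protocadherins outside the clusters held 48.6% of the members' summed CPM, the classical cadherins 24.9%, the 55 clustered genes 23.1% and Cdh13 3.43%. Per kilobase of annotated exon, 3 of the 4 delta-1 protocadherins had the highest mean levels, 26.7 CPM per kb for Pcdh1, 26.6 for Pcdh9 and 22.6 for Pcdh7, while the other, Pcdh11x, had 1.56. Pcdhgc5 followed at 17.6 CPM per kb, Pcdh10 at 17.4, Cdh2 at 16 and Cdh22 at 13.0. For clustered genes this scale is uncertain, since alpha and gamma genes share their last exons: counted over the exon length not shared with other genes, Pcdhgc5 had 29.1 CPM per kb.

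Between the genotypes, 1 of the 84 members passed the test, Cdh6, which fell. Over all tested genes 0.267% passed (37 genes), 18 higher and 19 lower. Of the members, 42 had a log2 fold change above 0 and 42 below, with a median of 0.004, where 49.5% of all tested genes were above 0 and their median was -0.001. At an unadjusted p under 0.05 there were 5 members, Cdh4, Cdh6, Cdh8, Cdh9 and Pcdh17, beside 7.24% of all tested genes. The genotypes did not overlap in 2 members, Cdh6 and Cdh8, beside 4.55% of all tested genes, so over all 84 members neither share stood above the background. Of the 17 classical cadherins, 23.5% had an unadjusted p under 0.05 and 11.8% did not overlap. These shares were 9.09% and 0% for protocadherins outside the clusters, and both were 0% for clustered members. Differences between the classes were not tested. Summed over each group, the levels of the genotypes overlapped in every case: classical cadherins had 593 ± 19.5 against 616 ± 30.4 CPM, protocadherins outside the clusters 1193 ± 40.4 against 1165 ± 31.2 CPM and clustered protocadherins 563 ± 17.4 against 557 ± 11.7 CPM (heterozygous against wild type, SD, n = 4).

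**Figure D1:**
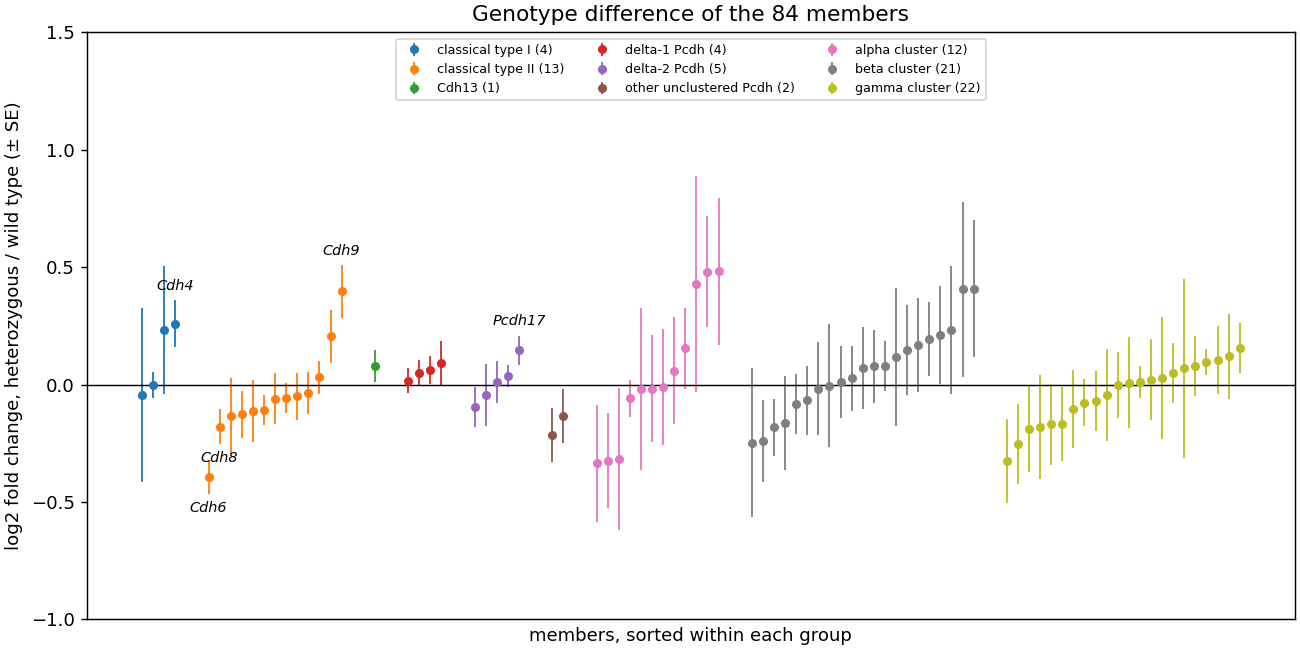
Log2 fold change of each of the 84 members, heterozygous over wild type, with its standard error, grouped by kind and sorted within each group; names mark the 5 members at an unadjusted p under 0.05. Cdh6 at -0.39 is the 1 member that passed the test, and the wide bars of the alpha, beta and gamma genes belong to members with few reads.

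Among the type II cadherins, Cdh6 fell. Its product is a homophilic adhesion protein known from subsets of developing neurons and from the kidney. Cdh6 had 45.1, 48.0, 47.8 and 39.7 CPM in heterozygous replicates 1 to 4 and 63.7, 59.4, 57.9 and 55.9 CPM in wild type replicates 1 to 4. Every library labelled heterozygous lay below every library labelled wild type, with the lowest value in heterozygous replicate 4 and the highest in wild type replicate 1. The log2 fold change was -0.39 ± 0.07 (SE), with a 95% interval from -0.54 to -0.24 and an edgeR adjusted p of 0.0142. A two-sided exact permutation test of the CPM gave a p of 0.0286, the smallest that 4 against 4 libraries allow and the value that groups without overlap always give, so it adds nothing to the lack of overlap. These levels rest on 709 to 1095 reads a library. The gene (ENSMUSG00000039385.5) is on chromosome 15 (minus strand), from 13028701 to 13173675 in GRCm38. In whole cortex, fewer cells that express a gene and less RNA per cell cannot be told apart.

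The fall of Cdh6 was as large in both runs of animal numbers, with differences in log2(CPM + 0.5) of -0.40 in the first and -0.38 in the second. The call itself depended on single libraries. Without heterozygous replicate 4 the log2 fold change was -0.33 and the edgeR adjusted p 0.0868, without wild type replicate 1 they were -0.34 and 0.1, and without wild type replicate 2 they were -0.40 and 0.0584. Markers of layer 2 to 4 neurons, the upper cortical layers, went both ways: 3 of 8 were above 0, with a median log2 fold change of -0.12. Of the list, 1 was called higher and 1 lower, beside 0.267% of all tested genes called, and none was at 0 reads. The genotypes did not overlap in 5 of 8, Mef2c among them (4.55% of all tested genes did not overlap). Of these, Rasgrf2 fell (-0.33) and Mef2c itself rose, while Lamp5 (-0.27), Cux1 (-0.15) and Cux2 (-0.12) did not pass. The other markers of the list, Rorb, Calb1 and Pou3f1, did not pass either, and the rises other than Mef2c were among them. The summed level of the 8, in which Mef2c dominates, was 2189 to 2340 CPM in the heterozygous and 1979 to 2127 CPM in the wild type group. The part of these neurons in the level of Cdh6 was not tested.

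**Figure D2:**
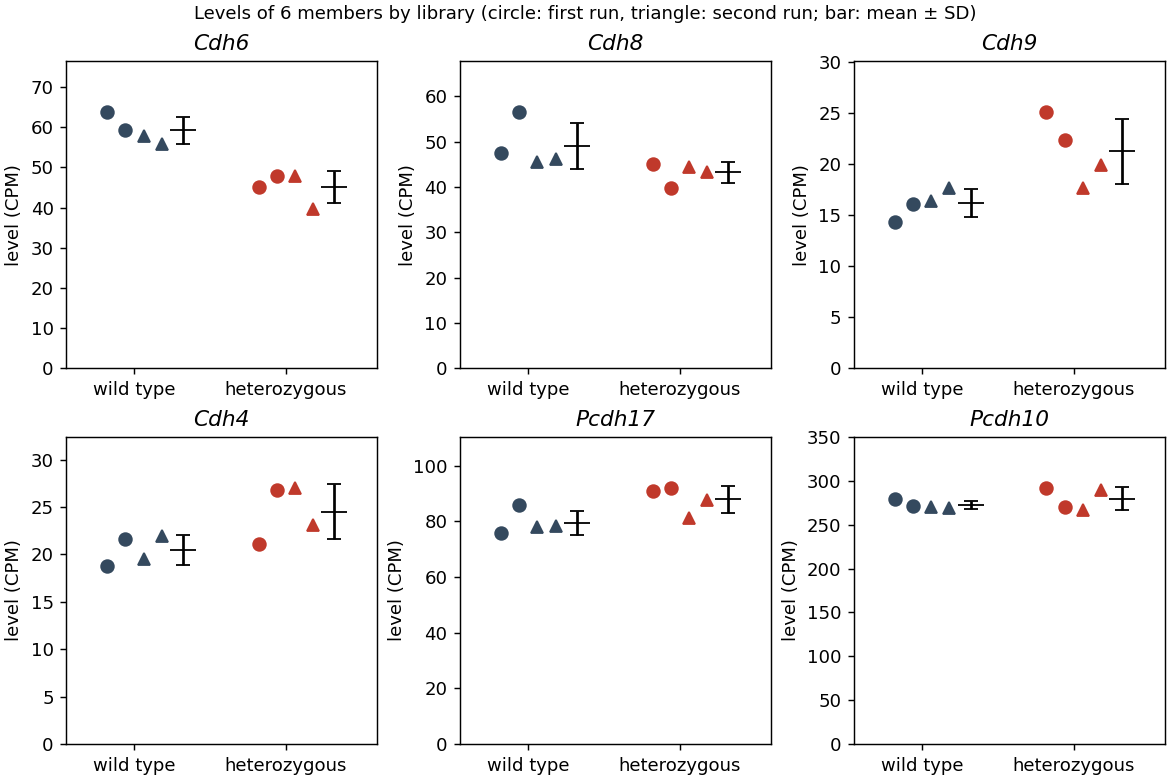
Level in CPM of Cdh6, Cdh8, Cdh9, Cdh4, Pcdh17 and Pcdh10 in each library, by genotype, with circles for the first and triangles for the second run of animal numbers and bars for mean ± SD (n = 4). The genotypes are apart for Cdh6 and, by a small gap, for Cdh8, and they overlap for the other 4 genes.

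Cdh8, a type II cadherin of corticostriatal circuits, had 45.02, 39.9, 44.5 and 43.4 CPM in the heterozygous libraries and 47.5, 56.4, 45.5 and 46.2 CPM in the wild type libraries. The groups did not overlap, but the gap between the highest heterozygous and the lowest wild type library was under 1 CPM. Its log2 fold change of -0.18 ± 0.07 (SE) did not pass, with an edgeR adjusted p of 0.549. In log2(CPM + 0.5) the difference was -0.29 in the first run and -0.06 in the second.

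Cdh9, known from hippocampal mossy fibre synapses, had 25.1, 22.4, 17.6 and 19.9 CPM in the heterozygous libraries and 14.4, 16.1, 16.4 and 17.7 CPM in the wild type libraries. The groups overlapped by a narrow margin, in heterozygous replicate 3 and wild type replicate 4. The log2 fold change of 0.40 ± 0.11 (SE), of the same size as that of Cdh6 and opposite in sign, had an edgeR adjusted p of 0.19 and did not pass. In log2(CPM + 0.5) the difference was 0.62 in the first run and 0.13 in the second. In the first run alone, 2 mice a genotype, Cdh9 had an adjusted p of 0.00154 in the same test. With sex also a term, few degrees of freedom remained there, so this p leans on the spread of other genes. The test of the difference between the runs gave an unadjusted p of 0.0219 for Cdh9 and did not pass after adjustment.

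Of the 13 type II cadherins, 10 lay below 0 in log2 fold change (median -0.06), and 1 was called, beside 0.267% of all tested genes. The most reads fell to Cdh11, known also from mesenchymal cells, at 80.6 ± 7.83 against 86.8 ± 4.80 CPM, and to Cdh10 at 67.1 ± 3.49 against 69.8 ± 3.37 CPM (heterozygous against wild type, SD, n = 4). Their log2 fold changes were -0.11 ± 0.06 and -0.06 ± 0.06 (SE). After Cdh9, Cdh24 had the smallest p above 0, with a log2 fold change of 0.20 ± 0.11 (SE). Cdh6, Cdh9, Cdh10, Cdh12 and Cdh18 all lie on chromosome 15, and their log2 fold changes were -0.39, 0.40, -0.06, -0.06 and -0.04.

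Among the type I cadherins, the neural cadherin gene Cdh2 was near-equal at 129 ± 4.93 against 129 ± 10.3 CPM (SD, n = 4), with a 95% interval of the log2 fold change from -0.12 to 0.11. Cdh4, the retinal cadherin gene, had 21.1, 26.8, 27.0 and 23.1 CPM in the heterozygous libraries and 18.7, 21.6, 19.5 and 22.0 CPM in the wild type libraries. Heterozygous replicate 1 lay within the wild type range. The log2 fold change of Cdh4 was 0.26 ± 0.10 (SE) with an edgeR adjusted p of 0.504, and the differences in log2(CPM + 0.5) within the runs were 0.24 and 0.26. Cdh1, the epithelial cadherin gene (2.28 CPM over all libraries), and Cdh15, the muscle cadherin gene (1.28 CPM), were low, and their log2 fold changes of 0.23 ± 0.27 and -0.05 ± 0.37 (SE) are imprecise. Cdh13, whose product is anchored in the membrane by a lipid and has no cytoplasmic tail, had 85.5 ± 5.93 against 81.0 ± 7.14 CPM (SD, n = 4) and a log2 fold change of 0.08 ± 0.07 (SE).

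None of the 11 protocadherins outside the clusters passed the genotype test, beside 0.267% of all tested genes. Pcdh10, a delta-2 protocadherin known for activity-dependent synapse elimination and as an autism gene, had 292, 270, 267 and 290 CPM in the heterozygous libraries and 280, 272, 271 and 269 CPM in the wild type libraries. The wild type values all lay inside the heterozygous range. The log2 fold change was 0.04 ± 0.05 (SE), with a 95% interval from -0.06 to 0.14, an edgeR adjusted p of 0.968 and a two-sided exact permutation p of 0.4. The gene (ENSMUSG00000049100.15) is on chromosome 3 (plus strand), from 45378398 to 45435623 in GRCm38.

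The other delta-2 members likewise overlapped. Pcdh17, of corticobasal ganglia synapses, had 90.9, 92.0, 81.2 and 87.6 CPM in the heterozygous and 75.8, 85.8, 78.0 and 78.4 CPM in the wild type libraries. Wild type replicate 2 lay above heterozygous replicate 3, and the log2 fold change of 0.15 ± 0.06 (SE) had an edgeR adjusted p of 0.572. Pcdh19, the X-linked gene of a female-limited epilepsy, had a log2 fold change of -0.10 ± 0.08, Pcdh8, an activity-induced gene, 0.01 ± 0.09 and Pcdh18 -0.05 ± 0.13 (SE).

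The 4 delta-1 members all had a log2 fold change above 0 and none passed. Pcdh7 had 244 ± 13.0 against 235 ± 13.1 CPM, Pcdh1 had 240 ± 13.6 against 230 ± 21.1 CPM and Pcdh9 had 182 ± 7.26 against 180 ± 7.93 CPM (heterozygous against wild type, SD, n = 4). Their log2 fold changes were 0.05 ± 0.05, 0.06 ± 0.06 and 0.02 ± 0.05 (SE), and that of X-linked Pcdh11x was 0.09 ± 0.09. Differences of the size seen in Cdh6 lay outside the 95% intervals of the abundant members: they ran from -0.06 to 0.16 for Pcdh7, from -0.07 to 0.19 for Pcdh1 and from -0.09 to 0.13 for Pcdh9. Of the remaining genes, Pcdh20 had 24.3 ± 3.87 against 28.4 ± 5.34 CPM and Pcdh15, a hair cell gene, 18.2 ± 2.23 against 19.98 ± 2.77 CPM (SD, n = 4), with log2 fold changes of -0.22 ± 0.11 and -0.13 ± 0.12 (SE).

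The 55 clustered protocadherins gave no call by genotype and none had an unadjusted p under 0.05. Over all tested genes these shares were 0.267% and 7.24%. Of these, 29 had a log2 fold change above 0 and 26 below, with a median of 0.01 and a range from -0.34 to 0.48. The clusters lie one after the other on chromosome 18, from 36930184 to 37841873 in GRCm38. The 12 alpha members summed to 65.9 ± 6.29 against 67.0 ± 2.06 CPM, the 21 beta members to 137 ± 5.90 against 135 ± 9.32 CPM and the 22 gamma members to 360 ± 16.4 against 355 ± 11.8 CPM (heterozygous against wild type, SD, n = 4). None of these sums separated the genotypes.

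The alternative members, those chosen stochastically by neurons, had a median of 5.82 CPM over 50 genes, and of 99.3 reads a library. The beta members with the most reads were Pcdhb17 (16.1 CPM), Pcdhb22 (13.6) and Pcdhb20 (11.4), and after the C-type genes Pcdhga12 (18.1) led the gamma cluster. Among the 5 C-type members, which are expressed more uniformly between neurons, Pcdhgc5 had 147, 139, 135 and 133 CPM in the heterozygous and 130, 123, 136 and 130 CPM in the wild type libraries. Heterozygous replicates 3 and 4 lay within the wild type range, and the log2 fold change was 0.10 ± 0.06 (SE). Pcdhgc3 had 65.1 ± 5.36 against 64.6 ± 3.49 CPM and Pcdhac2 32.7 ± 2.26 against 34.0 ± 1.62 CPM (SD, n = 4). The C-type members took 44.5% ± 1.33 of the clustered CPM in the heterozygous and 43.8% ± 0.787 in the wild type group (SD, n = 4), with single libraries from 43% to 46.2%.

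The largest clustered differences had few reads. Pcdha6 had a log2 fold change of 0.48 ± 0.24 (SE) and Pcdha10 one of 0.48 ± 0.31. In the alpha cluster Pcdhac1 (-0.34 ± 0.25) and Pcdha5 (-0.32 ± 0.20) had the smallest p below 0. In the gamma cluster Pcdhga10 had -0.33 ± 0.18 and Pcdhga4 -0.25 ± 0.17, with Pcdhgc5 and Pcdhga3 (0.16 ± 0.11) on the other side. In the beta cluster Pcdhb22 (-0.18 ± 0.12) and Pcdhb7 (-0.24 ± 0.18) had the smallest p below 0, and Pcdhb15 (0.41 ± 0.29) and Pcdhb12 (0.19 ± 0.16) above 0. The SE of a log2 fold change was 0.18 in the median clustered gene and 0.10 in the median classical cadherin. Members of the alpha cluster share a median of 53.5% of their annotated exon length with other members and those of the gamma cluster 44.7%, against 0% in the beta cluster, so that the split of reads among alpha and gamma members is uncertain.

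**Figure D3:**
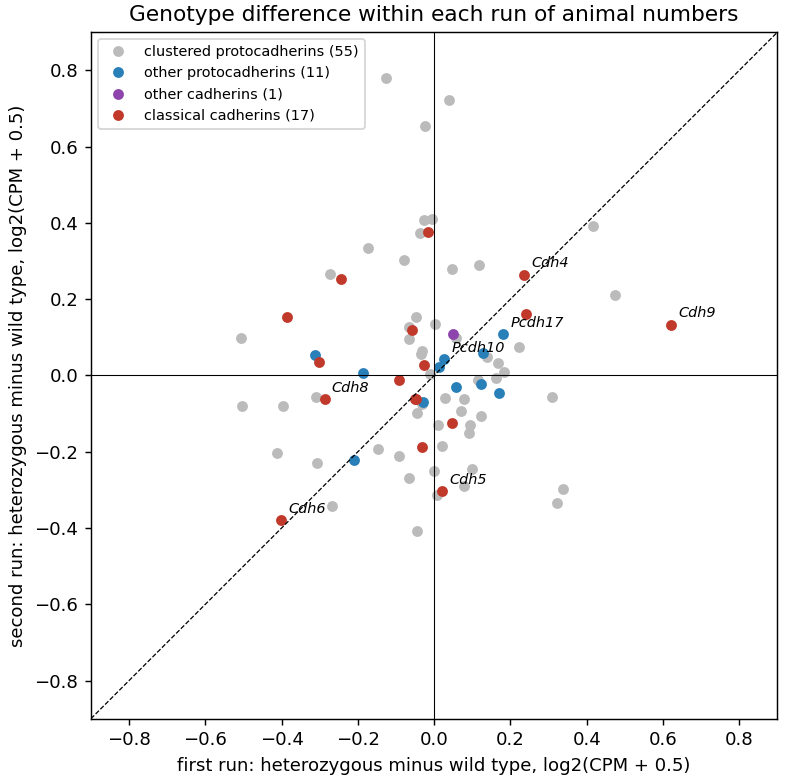
Heterozygous minus wild type difference of each member in log2(CPM + 0.5), first run of animal numbers on the x axis and second on the y axis (2 mice per genotype in each), with the dashed line where both are equal. Cdh6 lies on that line at -0.40 and -0.38, while Cdh9 lies at 0.62 and 0.13.

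The runs of animal numbers were compared in the same way, with sex and genotype as terms. No member passed, while 0.382% of all tested genes did (53 genes). At an unadjusted p under 0.05 there were 5 members, beside 10.2% of all tested genes. These were Pcdh8 (0.24, second minus first run) and Pcdhga9 (0.43), higher in the second run, and Cdh5 (-0.42), Cdh11 (-0.12) and Cdh15 (-0.77), lower in it. In the other kinds the smallest p belonged to Pcdhac1 (-0.39) of the alpha cluster, Pcdhb17 (-0.20) of the beta cluster, Pcdh1 (0.09) of delta-1, Cdh13 (0.12) and Pcdh20 (-0.15). Pcdh8 had 40.7 to 46.7 CPM in the first run and 49.2 to 53.3 CPM in the second, so that the runs did not overlap. Its edgeR adjusted p was 0.149.

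Cdh5 is the cadherin of endothelial junctions. It had 14.3, 13.6, 15.6 and 12.1 CPM in the first run (heterozygous replicates 1 and 2, wild type replicates 1 and 2) and 9.32, 9.24, 12.8 and 10.4 CPM in the second. The runs overlapped through wild type replicates 2 and 3, and the edgeR adjusted p was 0.18. Endothelial markers moved with it: 10 of 10 were lower in the second run, with a median log2 fold change of -0.42, and summed to 248.9 to 273 CPM in the first and 182 to 237 CPM in the second run. Of these, Pecam1 and Ly6c1 passed the test, and none was at 0 reads. Other lists differed between the runs too: 7 of 7 striatum markers (median -0.31) and 5 of 6 markers of pericytes and smooth muscle (-0.18) were below 0, and 7 of 7 leptomeningeal fibroblast markers (0.32) were not, with none of these called. Of 7 inhibitory neuron markers (median 0.02) 1 was called between the runs, beside 0.382% of all tested genes. The part of endothelial or other cells in the level of Cdh5 was not tested. Between the genotypes the marker sums ran from 183 to 273 CPM in the heterozygous and from 182 to 259 CPM in the wild type group.

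**Figure D4:**
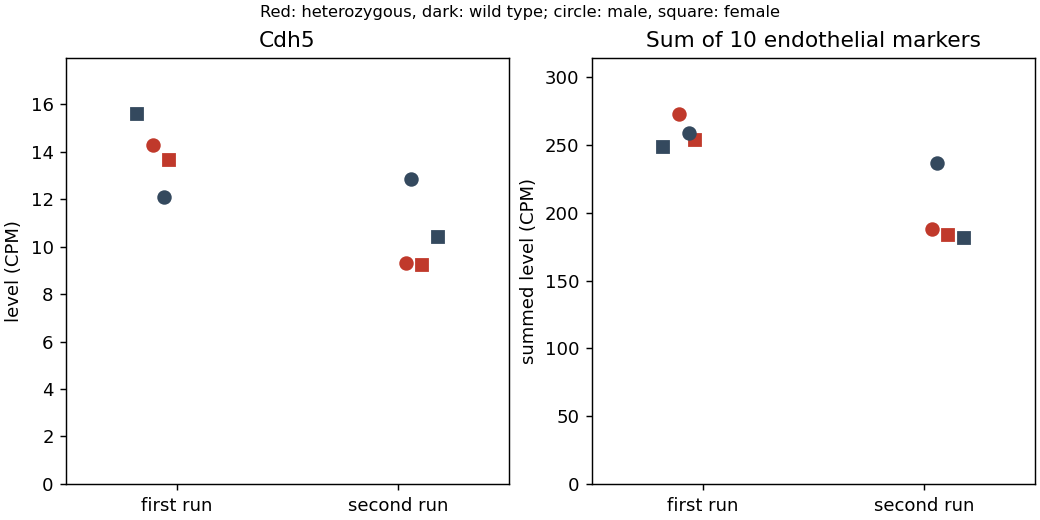
Level of Cdh5 (left) and summed level of 10 endothelial markers (right) in CPM, by run of animal numbers, red for heterozygous and dark for wild type, circles for males and squares for females. In the second run the marker sums lie between 182 and 237 CPM, all below the 248.9 to 273 CPM of the first run, and wild type replicate 3 is the highest of the second run in both panels.

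Between the sexes no member passed the test, while 0.0288% of all tested genes did (4 genes). At an unadjusted p under 0.05 there were 8 members, beside 2.92% of all tested genes. The X-linked Pcdh11x had 20.2 CPM in males and 23.4 CPM in females (means), and X-linked Pcdh19 had 37.7 and 42.6 CPM. Cdh24, Pcdha1, Pcdha9 and Pcdha12 were on the higher side in males, and Pcdh20 and Pcdhga7 on the higher side in females, each with an edgeR adjusted p of 1. The genotype difference itself was not called to differ between the sexes in any member (0% of all tested genes, 3 members and 2.64% of all tested genes at an unadjusted p under 0.05). It was not called to differ between the runs in any member either, where 0.00721% of all tested genes were called (1 gene). There, 3 members had an unadjusted p under 0.05, Cdh9, Cdh19 and Pcdhga2, beside 4.09% of all tested genes.

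The spread between mice of 1 genotype followed depth. The median coefficient of variation within a genotype was 10.5% for classical cadherins, 9.78% for protocadherins outside the clusters and 18.7% for clustered members, where counting noise alone would give a median of 4.96%, 3.53% and 9.53%. Relative to genes of like level, the dispersion that edgeR fitted was largest for Pcdhb18 (1.85 times the trend), Pcdha7 (1.75) and Cdh5 (1.74). Pcdhb18 had 8.95, 9.23, 9.01 and 9.46 CPM in the heterozygous libraries, but 9.02, 9.50, 10.7 and 4.30 CPM in the wild type libraries, so that wild type replicate 4 alone was low. It was smallest for Pcdha3 (0.694 times the trend), Pcdha6 (0.718) and Pcdhga3 (0.766). The median over the clustered members was 0.964 times the trend. Since edgeR draws the dispersion of each gene toward this trend, that ratio cannot show whether they varied as much as other genes of their level.

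**Figure D5:**
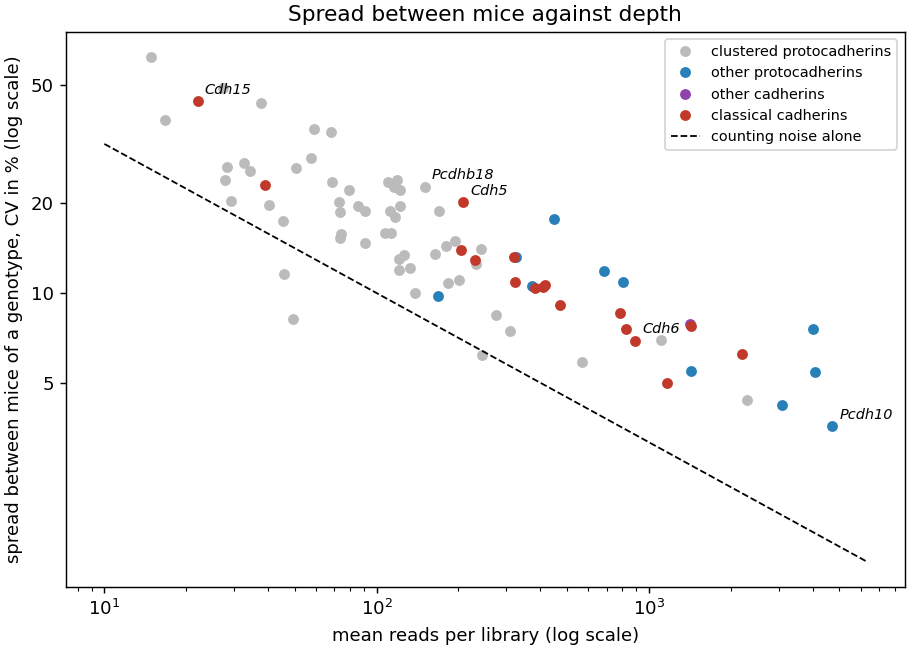
Coefficient of variation between mice of 1 genotype in percent against the mean reads per library, both on log scales, for the 84 members; the dashed line is the value that counting noise alone would give. The spread falls with depth, being 43.9% in Cdh15, with few reads, and 3.57% in Pcdh10, and nearly all members lie above the line.

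Partners of these adhesion proteins did not pass either. In 7 lists of 61 genes, 57 were tested, none passed by genotype, 27 were above 0 and 2 had an unadjusted p under 0.05. Over all tested genes 0.267% passed and 7.24% had an unadjusted p under 0.05. Of the 14 catenins and adaptors, 7 were above 0, and Ctnna2, the neuronal alpha-catenin gene, had the smallest p at -0.11 ± 0.05 (SE). Of the 7 genes of the WAVE complex, an actin regulator bound by delta-2 protocadherin tails, Wasf1 had 0.10 ± 0.05. Ptk2b, a kinase gene linked to clustered protocadherins, had 0.09 ± 0.05 and Adam10, a sheddase of cadherins, 0.11 ± 0.06. Of 10 tested genes of promoter choice in the clusters, such as cohesin, 2 were above 0, and Rad21 had -0.06 ± 0.05. Mdm2, whose product marks the synaptic scaffold PSD-95 for a turnover that needs Pcdh10, had 0.11 ± 0.08. In the wider cadherin superfamily Celsr2, of planar polarity, had 321 ± 4.31 against 284 ± 21.0 CPM (SD, n = 4) without overlap, a log2 fold change of 0.17 ± 0.05 (SE) and an edgeR adjusted p of 0.218. It was the 1 tested partner gene without overlap, beside 4.55% of all tested genes.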

How the data were processed

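The table the authors deposited holds raw counts of reads for each gene symbol in 8 libraries, made with STAR 2.5.2b and HTSeq on mm10 per the submitters' processing notes. For annotation, strand setting and treatment of reads shared between genes, the choice is not given in the sources used here. A gene and an antisense partner therefore cannot be told apart.

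From the counts, genes were kept with filterByExpr by genotype at a minimum count of 10 (13879 genes) and scaled by TMM. The test was edgeR's robust quasi-likelihood F-test (edgeR 4.0.16, R 4.3.3) with sex and genotype as terms, and an adjusted p under 0.05 over all tested genes was called. Runs, sexes and interactions were tested likewise, and Cdh6, Pcdh10 and Mef2c also with a two-sided exact permutation test. The pipeline was tested on simulated data. Within-run differences use a pseudocount of 0.5 CPM. Group sums were not tested.

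The members, marker lists and partner lists were chosen with earlier results of these data known. Genes were named by a rule: Cdh6, Pcdh10, Mef2c, called members, members without overlap, the 3 highest, the 2 rises and 2 falls of smallest p and the smallest p by run in each kind, extremes of dispersion, members at the limit and the smallest p of each partner list. Genes on chromosome 15, those at an unadjusted p under 0.05 and single markers were named after their values were seen.

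Gene positions and exon lengths came from GENCODE release 21 (GRCm38), which matched 83 of the 84 members. Libraries were separate mice per the labels, and no pair within a genotype agreed within sampling noise (lowest chi-square per degree of freedom 4.12). Alternatives were other scalings, filters, covariates, DESeq2 1.42.0, limma-voom (limma 3.58.1), an adjusted p under 0.1, each run alone and each library left out.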

Additional observations from a re-analysis of the deposited data

Results flagged for a closer look

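In 7 of the 168 groups of 4 libraries, that is the 84 members in either genotype, a single library stood apart by Dixon's criterion, which chance meets in about 1 group in 20. Pcdh19 had 43.7 CPM in heterozygous replicate 4, where the other heterozygous libraries had 36.8 to 37.7. Pcdhb14 had 6.28 CPM in heterozygous replicate 3 (others 7.61 to 7.88) and Pcdhb16 5.39 CPM in heterozygous replicate 1 (others 3.89 to 4.1). In the wild type group, Pcdha6 had 2.64 CPM in replicate 3 (others 2.07 to 2.12) and Pcdhga1 6.93 CPM in replicate 3 (others 4.3 to 4.72). Pcdhb5 had 9.83 CPM in wild type replicate 1 (others 5.56 to 5.93) and Pcdhgb1 6.62 CPM in wild type replicate 2 (others 7.68 to 7.88).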

How the results depend on the processing

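The count of members called by genotype was 1 under other scalings, filters, covariates, tools and the adjusted p under 0.1. It ran from 0 to 1 with single libraries left out, was 2 in the first run alone (Cdh6 and Cdh9) and 0 in the second run alone, where Cdh6 had -0.38 and an edgeR adjusted p of 0.0519. Each run alone holds 2 mice a genotype, and with sex also a term its calls lean on the spread of other genes. Counts for the runs, sexes and interactions were 0 under every alternative run. The summed gamma level, a log2 difference of 0.02 between the genotypes, was 0.10 in the first and -0.05 in the second run. The alpha sum (0.02 and -0.08) and the beta sum (-0.04 and 0.09) also changed sign between the runs. The cause was not tested. Of the 84 members, 34 kept the sign of their genotype difference in all 19 settings and 50 changed it. Depth limits the clustered members most. The labels give the genotypes no shared replicate numbers, but each run holds 1 mouse of every sex and genotype; with the run as a further term 1 member was called, Cdh6, at -0.39 and an edgeR adjusted p of 0.00543.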
